A study of Drosophila melanogaster with 3 samples.

Results

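The TORC1 and GATOR genes are 10 Drosophila genes for the amino acid branch of TOR signalling, and the values below give the binding of CG10431 at each of them. CG10431 is assayed here as a transcription factor. The genes were chosen by pathway, as a list of symbols, after the signal at mio in these same lists was known, so the values at the genes are a description and none was tested. The 10 are mio, Wdr24, Wdr59, Nprl2, Nprl3, Iml1, Tor, raptor, RagA-B and RagC-D, out of 13968 protein-coding genes on the assembled chromosome arms. All 10 were found in the annotation, Tor under its current symbol mTor. Their lengths ran from 1584 to 10621 bp, against a median of 2164.5 bp for protein-coding genes.

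Binding was mapped by chromatin immunoprecipitation and sequencing (ChIP-seq) in whole embryos of mixed sex, collected 0 to 12 h after laying. The samples are 3 biological replicates of 1 group, all from 1 transgenic line that stably expresses CG10431 with GFP at its C terminus, so there is no second genotype or treatment to compare. Each replicate has a deposited list of 30000 candidate entries, peaks and background together. A list of equal length was called on the pooled replicates. Of its entries, 3314 are in the authors' list thresholded by reproducibility between replicates (the irreproducible discovery rate, IDR), and these are said below to pass IDR. They are the 3314 strongest by pooled signal, so an entry that passed can be weak in 1 replicate. Every entry has a summit, which is the base of its highest point, and a signal, which is the peak caller's own value in a unit that no source used here states. Ranks by signal were therefore taken within a list, and a signal was divided by the median signal of its own list before replicates were averaged. Read depth is unknown. The free text of the labels names an input control while the assay, antibody and file notes describe a ChIP, and the samples were taken as ChIP. Because the embryos were whole, binding in a few cells and weak binding in many cannot be told apart.

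TORC1 is a protein kinase complex built around the kinase Tor and its substrate-binding subunit raptor. It promotes protein synthesis and growth when amino acids are plentiful, and restrains autophagy. The Rag GTPases, here RagA-B and RagC-D, bring it to the lysosome. GATOR1, made of Nprl2, Nprl3 and Iml1, inactivates the Rag GTPases and so restrains TORC1, and GATOR2, which holds mio, Wdr24 and Wdr59, counters GATOR1. In the fly ovary mio, whose name stands for missing oocyte, is needed to keep the oocyte fate.

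The 10 genes split sharply by the strength of their entries. The start of mio carried the fifth strongest entry of every list, and none of the other 9 genes had an IDR summit within 500 bp of a start. Of the 10 genes, 1 was therefore called bound at a start, against 14.8% of all protein-coding genes, and 5 had a pooled candidate there, against 46.8%. Among protein-coding genes with a pooled candidate at a start, 31.7% had an IDR summit. With 2 kb added on either side of each gene, 2 of the 10 held an IDR summit (mio and RagC-D), against 26.9% of protein-coding genes, and 6 held a pooled candidate, against 65.3%. These shares lie near those of all genes, so the count of bound members sets the list apart in neither direction. The signal at mio, on which the list was chosen, is described first.

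**Figure D1:**
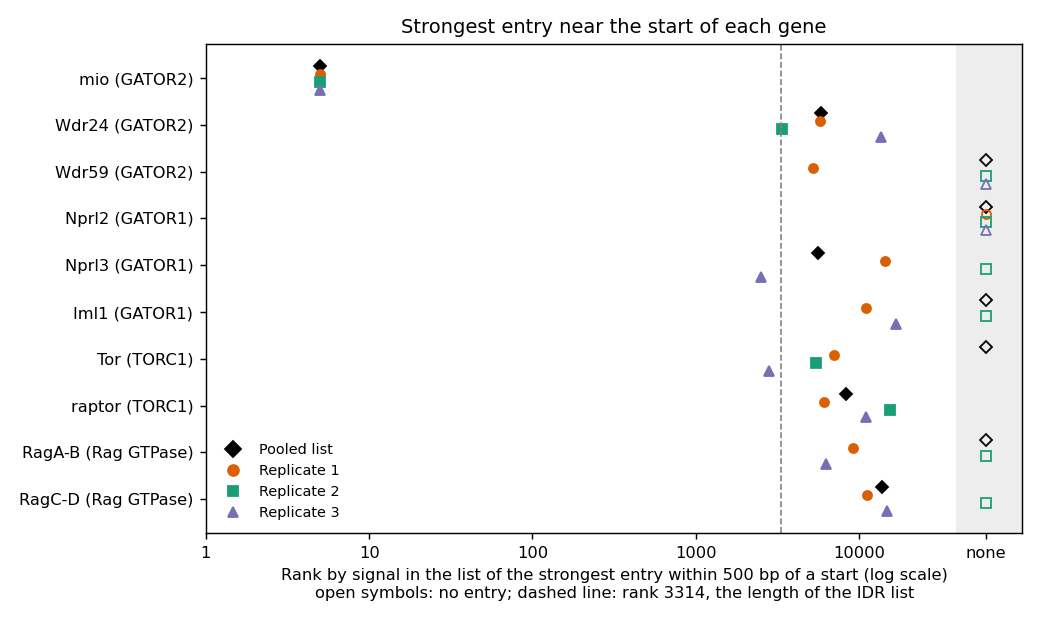
Rank by signal (x axis, log scale, 1 is the strongest) of the strongest entry within 500 bp of a start of each gene (rows), in the pooled list and in each replicate. Open symbols stand for no entry and the dashed line marks rank 3314. The 4 symbols of mio lie at rank 5, and no other gene has a rank under 2490 in any list.

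The mio peak (dm6, 2L, 2216907 to 2217707, plus strand gene FBgn0031399) had a pooled signal of 7067. Its signal was 1873 in replicate 1, 3099.8 in replicate 2 and 2138 in replicate 3, and it ranked 5 in each list. Relative to the median entry of its own list this was 79.2, 88.0 and 75.7 in replicates 1, 2 and 3, with a mean of 81.0 ± 6.32 (SD, n = 3). The 3 replicates thus placed the peak at nearly the same height. The highest entry of each list was 9.95, 9.65 and 9.65 times as strong in replicates 1, 2 and 3. The entries next to it in rank were close. The entry above was 1.13 times as strong (pooled; 1.02 to 1.30 in the replicates), and mio was 1.12 times as strong as the entry below (pooled; 1.08 to 1.15 in the replicates). Of the 20 strongest pooled entries, 5 held the same rank in all 4 lists, and these were ranks 1 to 5. The q-value of the mio peak as −log10 was 3.33 in the pooled list, which is the highest value that list contains. It does not set mio apart, as the summit at rank 949, with a signal of 374, had the same value. The mio peak interval spanned 801 bp, against a median of 424 bp, and 11 of the 3314 IDR peaks were at least as wide. Every other pooled peak in the members' windows was exactly 424 bp wide, except that at rank 949 (170 bp). The median may therefore be a set width and not a measured one, which was not tested.

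The summit lay 15 bp downstream of the only annotated mio start, in the 5′ UTR of mio. The replicate summits were 18, 22 and 14 bp downstream, a span of 8 bp. That start is shared ground. The genes CG15386 and CG42371 run away from mio on the minus strand and both start 44 bp from it, so their start lay 59 bp from the summit. The peak therefore counts for 3 genes, and these data do not say which of them, if any, it acts on. Replicates 2 and 3 each had a further entry 224 and 219 bp downstream of the mio start, with signals of 104 and 121 at ranks 2130 and 856. Replicate 1 and the pooled list had no separate entry there.

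The sequence at the mio summit is printed because it carries TACATGG, a short word present at most of the strongest CG10431 summits. The word was found earlier in these same peaks, so its presence at mio is a description and not independent support. It is the plus strand of dm6 at chr2L:2217205-2217405, read 5′ to 3′ with the summit at its middle base, from the RefSeq copy of the assembly. Capitals mark the DRE (TATCGATA, the DNA replication-related element of core promoters), CAGCTG (the core of the core promoter element Motif 5) and CCATGTA, which is TACATGG read on the minus strand. The mio start is base 86 and the shared start of CG15386 and CG42371 is base 42.
mio: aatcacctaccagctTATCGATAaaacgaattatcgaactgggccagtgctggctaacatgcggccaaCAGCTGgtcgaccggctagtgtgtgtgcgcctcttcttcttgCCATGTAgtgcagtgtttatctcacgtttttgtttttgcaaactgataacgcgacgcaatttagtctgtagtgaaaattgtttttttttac

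TACATGG was centred 13 bp downstream of the mio summit, at 2L, 2217315 to 2217321. The DRE lay at 2217220 to 2217227 and CAGCTG at 2217273 to 2217278. In windows of the summit base and 100 bp on each side, 256 of 3314 (7.72%) held TACATGG on either strand, against 2.54% of the windows of the other pooled candidates. Of the 20 strongest IDR peaks, 16 held it. As the word came from these peaks, its shares and its distances from the summits describe them and test nothing. The mio window had the fourth highest signal of the 256, and the word lay within 13 bp of the summit in 103 of them (the median distance was 18 bp). The DRE was present in 3.26% of IDR windows against 1.57% of the others, and CAGCTG in 11.1% against 8.80%. TACATGG and the DRE stood together in 4 IDR windows, and in 1 of these, the mio window, CAGCTG stood beside both. Among the other candidates, 2 windows held both words and 1 held all 3. In all, 7 words were searched on both strands. Besides TACATGG, the DRE and the Motif 5 core, they included ATACATG, which overlaps TACATGG by 6 bases. The Motif 1 core, another core promoter element, was searched as GGTCACAC. The E-box was searched only in the form CACGTG, and the TATA box as its usual run of letters. A match is a run of letters and does not show that a factor binds there.

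The other summits of the mio window were much weaker, and none of the other 8 in the pooled list had its nearest start in mio. With 2 kb added on either side, the gene held 9 pooled summits, of which 3 passed IDR. After the mio start, the strongest had a signal of 374 (2L, 2221677 to 2221846, rank 949) and lay in an intron of papi, which encodes a Tudor domain protein of the piRNA pathway, 361 bp upstream of a papi start. Its replicate signals were 129, 158 and 92.8 (ranks 840, 933 and 1512). The other IDR summit (2L, 2220511 to 2220934) had a signal of 216 at rank 2594 and lay 25 bp upstream of the first papi start. Its replicate signals were 44.5, 87.6 and 71.3 at ranks 5208, 2922 and 2657. The peak at the mio start was 18.9 times as strong as the next summit of its window in the pooled list, and 14.5, 19.6 and 17.6 times in replicates 1, 2 and 3. That next summit was the stronger papi one in the pooled list and in replicates 1 and 2, but in replicate 3 it was the entry 219 bp downstream of the mio start.

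The weaker papi window is shown for its match to the Motif 1 core, GGTCACAC, in capitals. It is the plus strand at chr2L:2220623-2220823, and the papi start is base 126.
papi: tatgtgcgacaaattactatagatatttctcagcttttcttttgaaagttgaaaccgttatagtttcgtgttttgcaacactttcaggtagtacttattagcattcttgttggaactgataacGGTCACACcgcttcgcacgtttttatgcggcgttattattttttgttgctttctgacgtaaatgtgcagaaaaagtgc

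None of the 7 words was found in the window of the stronger papi summit. On the other side of mio, 1004 bp upstream of its start, a candidate with a signal of 153 (rank 4699) that did not pass IDR lay 25 bp from the start of daed. Its replicate signals were 24.0, 62.3 and 50.8. The 2 summits inside mio downstream of its start, in coding exons, had signals of 77.8 and 51.3, against a list median of 74.4 and a lowest entry of 46.5 in the pooled list.

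**Figure D2:**
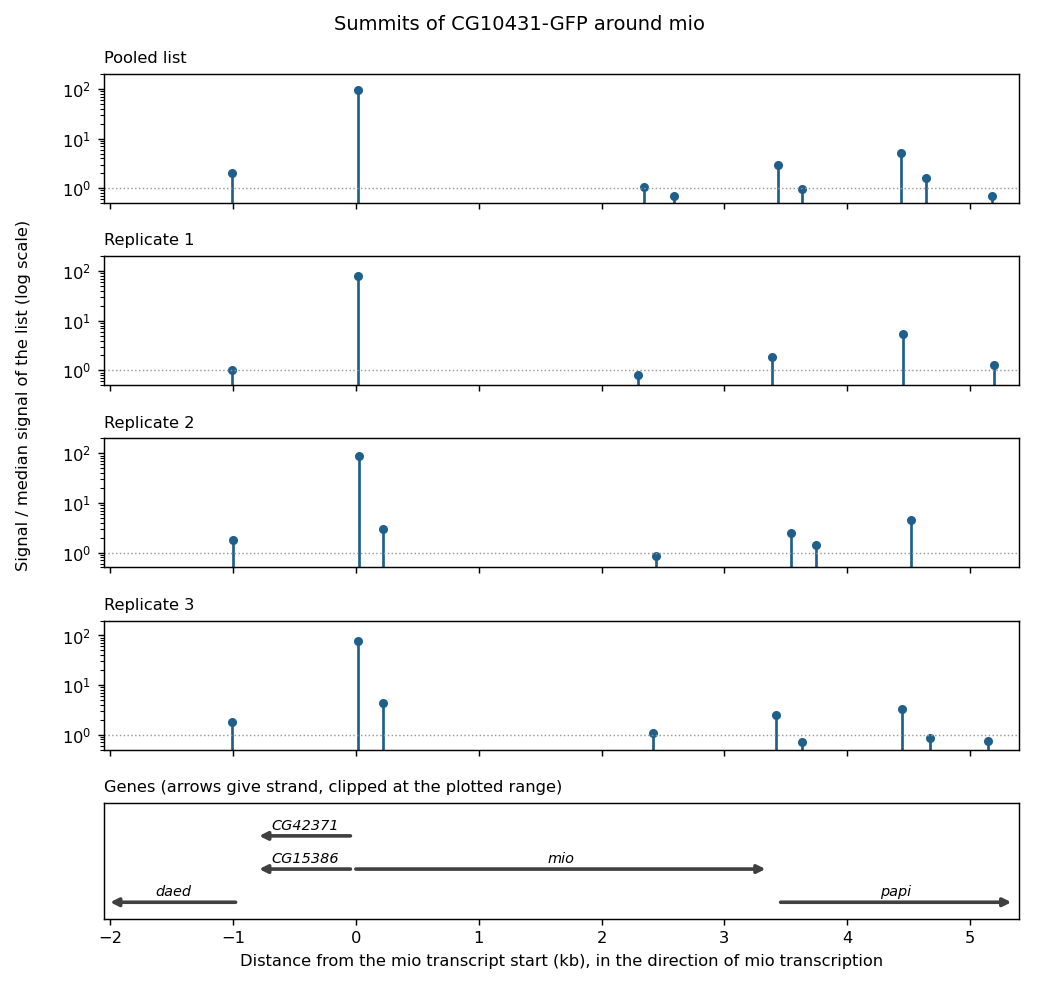
Signal of every summit divided by the median of its list (y axis, log scale) against the distance from the mio start in kb, for the pooled list and each replicate, with the genes drawn as arrows below. The summit at 0 kb stands at 94.9 in the pooled list and at 75.7 to 88.0 in the replicates, and no other summit in the window exceeds 5.46.

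The other subunits of GATOR2 had no such entry. At Wdr24 (FBgn0027518, 3R, 29741972 to 29745092) the strongest summit was a candidate 259 bp upstream of the start, with a pooled signal of 134 at rank 5827. Its signals were 41.8, 80.5 and 30.0 in replicates 1, 2 and 3, at ranks 5772, 3394 and 13519, or 1.70 ± 0.614 times the list median (SD, n = 3). This summit lay 14 bp from the start of the divergent gene IntS11, which encodes a subunit of the Integrator complex. At Wdr59 (FBgn0032339, 2L, 11091444 to 11095096) no pooled candidate lay within 2 kb, and the nearest was 11757 bp away. Replicate 1 had an entry 152 bp upstream of the Wdr59 start with a signal of 44.5 at rank 5192, and replicates 2 and 3 had none.

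The genes of GATOR1, the complex that restrains TORC1, carried no IDR summit within 2 kb. At Nprl3 (FBgn0036397, 3L, 13999380 to 14001880) there were 4 pooled candidates, all upstream, with signals of 95.9 to 155. The one nearest to Nprl3 lay 280 bp upstream of its start and 33 bp inside upSET, a divergent gene for a SET domain chromatin protein, with a pooled signal of 137. It had an entry with a signal of 23.5 in replicate 1 and 73.6 in replicate 3, at ranks 15155 and 2490, and none within 250 bp in replicate 2. Replicate 1 had a further entry 21 bp upstream of the Nprl3 start with a signal of 24.2. The strongest of the 4, with a pooled signal of 155 at rank 4589, lay in an upSET intron. The strongest entries within 250 bp of it had signals of 47.0, 48.8 and 51.6 in replicates 1, 2 and 3. That of replicate 2 lay 181 bp away, and a nearer entry of replicate 2 had a signal of 39.5 at rank 12319.

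The window of the candidate nearest to Nprl3 is shown because it too holds the Motif 1 core, here on the minus strand, so that the capitals read GTGTGACC. It is the plus strand at chr3L:14002060-14002260, and the upSET start is base 68.
Nprl3 and upSET: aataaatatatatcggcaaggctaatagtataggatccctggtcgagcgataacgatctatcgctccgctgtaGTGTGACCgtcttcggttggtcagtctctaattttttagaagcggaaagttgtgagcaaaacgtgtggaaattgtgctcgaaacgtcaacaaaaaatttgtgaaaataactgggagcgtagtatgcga

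The candidate just inside the 2 kb limit at any member was 1951 bp from RagA-B with a signal of 145, and the one just outside was 2106 bp from Nprl3 with a signal of 50.4. The nearest IDR summit outside the limit, with a signal of 273, lay 2314 bp from Nprl3. Iml1 (FBgn0035227, 3L, 1523414 to 1534034), the longest of the 10 genes, held no pooled candidate in its body or within 2 kb, and its nearest, an IDR summit with a signal of 200.9, was 3180 bp away. Near the Iml1 start, replicate 1 had an entry 187 bp upstream with a signal of 28.4 (rank 11049) and replicate 3 one 361 bp upstream with 26.3 (rank 16898). Nprl2 (FBgn0030800, X, 16882509 to 16884365) was the only one of the 10 with no entry within 500 bp of its start in any list. Its nearest pooled candidate was 3744 bp away.

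**Figure D3:**
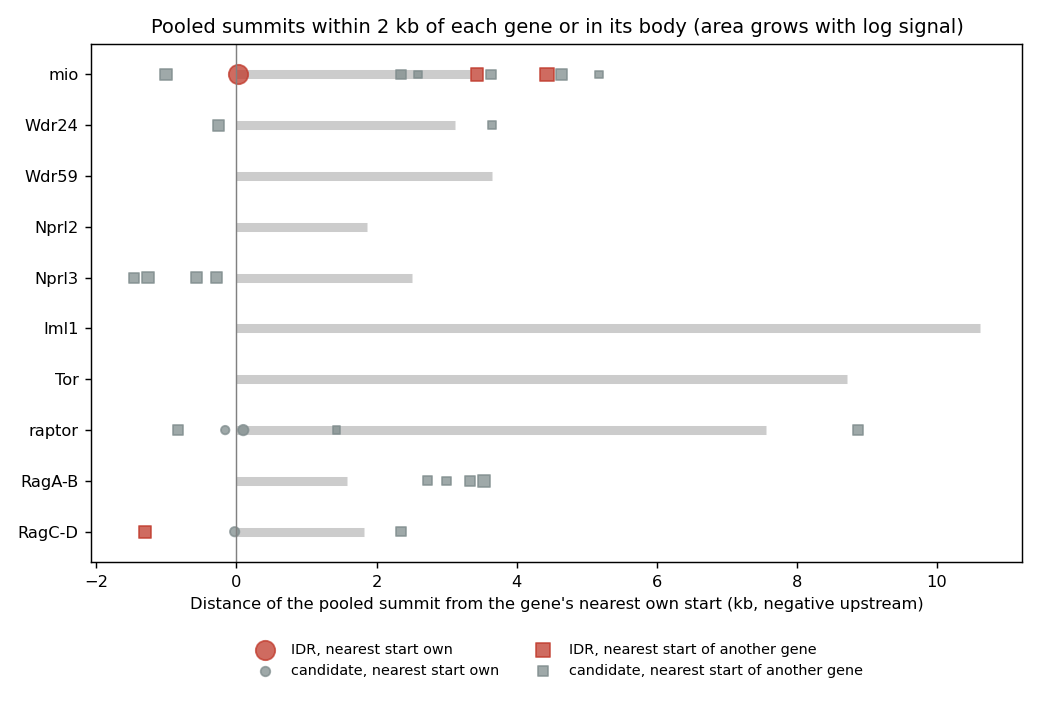
Pooled summits of each gene's window by signed distance in kb from the nearest own start (x axis), with gene bodies as grey bars. Red marks the 4 IDR summits, and circles mark the 4 of 27 summits whose nearest start is the gene's own.

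Tor itself stood apart in another way. The kinase gene (FBgn0021796, annotated as mTor, 2L, 13004480 to 13013197) had an entry near its start in every replicate and none in the pooled list. The entries lay 181, 338 and 95 bp upstream of the start in replicates 1, 2 and 3. Their signals were 36.9, 62.3 and 69.7 at ranks 7061, 5470 and 2797, or 1.93 ± 0.475 times the list median (SD, n = 3). As the 3 entries lay at different positions within 500 bp of the start, this mean need not describe 1 site. The nearest pooled candidate was 11977 bp from the gene. Tor was 1 of 4 members with an entry within 500 bp of a start in all 3 replicates, against 36.1% of protein-coding genes, and of such genes 2.34% (118 of 5040) had no pooled candidate there. The 3 summits lay between the starts of Tor and of the divergent gene Vha68-1, which encodes a V-ATPase subunit and starts 373 bp from Tor. Why the pooled list lacks an entry here was not tested.

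The Tor promoter is shown because it holds the summits of replicates 1 and 3, while that of replicate 2 lies outside it, 35 bp from the start of Vha68-1. It is the plus strand at chr2L:13004231-13004530, in which the Tor start is base 250. The capitals, at bases 83 to 88, mark TATAAA, the word searched for the TATA box and the only one of the 7 found. This match lies well upstream of the Tor start and is not shown to be a TATA box of Tor. The GC content of the stretch is 27.3%.
Tor: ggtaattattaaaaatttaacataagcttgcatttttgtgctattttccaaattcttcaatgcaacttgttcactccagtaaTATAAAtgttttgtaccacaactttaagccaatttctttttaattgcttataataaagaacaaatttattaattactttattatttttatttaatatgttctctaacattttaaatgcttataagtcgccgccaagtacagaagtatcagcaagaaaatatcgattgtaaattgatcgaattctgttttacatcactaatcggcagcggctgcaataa

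Its partner raptor (FBgn0029840, X, 6082634 to 6090201) had 5 pooled candidates and no IDR summit. The strongest lay 97 bp downstream of the raptor start, in its 5′ UTR, with a pooled signal of 108 at rank 8252. In replicates 1, 2 and 3 its signals were 40.3, 34.5 and 33.8, at ranks 6109, 15557 and 10962, or 1.29 ± 0.373 times the list median (SD, n = 3). Replicate 2 lay just under the median entry of its list. A second candidate 161 bp upstream of the start had a pooled signal of 60.4 and held the DRE in its window. Mipp2 and asRNA:CR44959 overlap raptor, so summits in its body are not its own alone.

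Of the Rag GTPase genes, RagA-B (FBgn0037647, 3R, 8982732 to 8984315) had 4 pooled candidates, all beyond its 3′ end at the start of CAHbeta, a carbonic anhydrase gene, or within that gene. Their pooled signals were 59.8 to 145. Within 500 bp of its own start, replicates 1 and 3 had 2 entries each. In replicate 1 an entry 124 bp upstream of RagA-B had a signal of 31.5 (rank 9212), and one 22 bp from the start of CG11970 had 20.02 (rank 19887). In replicate 3 an entry 49 bp upstream of RagA-B had a signal of 30.3 (rank 13257), and a stronger one 325 bp upstream, 78 bp from the start of CG11970, had 45.9 (rank 6226). Replicate 2 and the pooled list had none.

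RagC-D (FBgn0033272, 2R, 8161679 to 8163500) was the second gene with an IDR summit within 2 kb (2R, 8164593 to 8165016). This summit had a signal of 206 at rank 2800, 1305 bp upstream of the RagC-D start, and it lay 64 bp from a start of CG30373. Its replicate signals were 89.7, 86.3 and 35.0 at ranks 1585, 2991 and 10301. Replicate 3 stood well below the others, and the summit was found among the 3314 strongest entries of replicates 1 and 2 only. The entry at the RagC-D start itself, 26 bp upstream, had a pooled signal of 78.2 at rank 13853, with signals of 28.1 and 28.5 in replicates 1 and 3 and no entry in replicate 2. Its window held the DRE, the Motif 1 core and CAGCTG, without an IDR call.

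Over all 10 genes, the pooled list held 27 summits in the windows, and 23 of them had their nearest start in another gene. Of the 4 IDR summits, 1 had its nearest start in the member and 3 in a neighbour. The signals of the 4 IDR summits were 7067, 374, 216 and 206, and the 23 others ran from 47.0 to 155, with the lowest IDR signal of the series at 187. Since the IDR entries are the strongest of the pooled list, these ranges could not overlap. The −log10 q-values of the 27 ran from 0.211 to 3.33. In 16 of the 27 cases every replicate had an entry within 250 bp. Neighbouring summits could count the same replicate entries, so these need not be 16 separate sites. The papi summits with pooled signals of 216 and 73.1, for example, did so. The same share over all pooled summits is not given here, so the count is not read as a trait of these genes. Of the 4 IDR summits, 2 were found among the 3314 strongest entries of all 3 replicates, against 61.2% of all IDR summits, and these were the mio start and the stronger papi summit. Near the starts the replicates differed. Replicate 1 had an entry within 500 bp of a start at 9 of the 10 genes, replicate 2 at 4 and replicate 3 at 8, against 48.6%, 47.7% and 49.2% of protein-coding genes in those lists. Apart from mio, the strongest entry of each gene at a start ranged from 0.933 to 2.61 times the median of their replicate list.

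TACATGG was found in 1 of the 27 windows, at mio. In promoters, from 250 bp before to 50 bp after a start, TACATGG was present at 1 of the 10 genes (mio) and at 1.87% of 19276 protein-coding starts. ATACATG was present at 1 of the 10 (Nprl2) and at 3.07% of starts, with no entry of any list near the Nprl2 start. The DRE was present at 3 of the 10 (mio, raptor and RagC-D) and at 7.98% of starts. The Motif 1 core was present at 2 (Nprl2 and RagC-D) and at 6.72% of starts, and CAGCTG at 2 (mio and RagC-D) and at 17.9%. CACGTG, the only form of the E-box searched, was present at none of the 10 promoters and at 4.04% of starts, and TATAAA at 6 and at 42.3%. Outside the promoters, the window of the RagC-D IDR summit held CACGTG, as did 2.38% of IDR windows and 2.48% of the others. A gene with several starts had several chances, and no share was tested.

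To set these genes in their pathway, 40 other genes of TOR signalling were listed by role. An IDR summit lay within 500 bp of a start at 15 of them (37.5%), and a pooled candidate at 29. Of all protein-coding genes 14.8% had an IDR summit there. Among genes with a candidate the shares were 51.7% of the 29 and 31.7% of all protein-coding genes, and neither difference was tested. The 15 signals ran from 189.8 to 744, with a median of 367, so all lay far below mio. Of the 15 peaks, 12 were found among the 3314 strongest entries of every replicate, against 61.2% of all IDR summits. The median signal of the 15 was above that of the IDR list (280), and recurrence was not compared at like signal.

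The highest belonged to Nup44A, which encodes the Seh1 subunit of GATOR2, with a pooled signal of 744 at rank 249. Its replicate signals were 196, 339 and 191, at ranks 380, 196 and 333, and its summit lay 327 bp upstream of the start. The remaining GATOR2 subunit, Sec13, had no candidate at its start. Of the GATOR2 genes, Wdr24, Wdr59 and Sec13 had no IDR summit at a start.

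Upstream of TORC1, Sesn, which encodes Sestrin, known in mammals to bind GATOR2 and sense leucine, had a signal of 659.8 at rank 330. Its summit was as near to the start of CG46429. Its replicate signals were 282, 188 and 202. Of 5 Ragulator genes, whose products anchor the Rag GTPases at the lysosome, Lamtor3 had an IDR summit with a signal of 445, nearest to the start of fws. Rheb, the GTPase that activates TORC1, had a signal of 207 at rank 2777. Neither gene of the TSC complex, which restrains Rheb, had a candidate at a start, nor did Lst8, the third core subunit of TORC1. Of 4 genes for amino acid transport, CG13384 (signal 523, nearest to the start of Dad1) and path (189.8) had an IDR summit. Genes upstream of TORC1 therefore differed widely in signal within single complexes.

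Downstream, 2 of 7 genes for TORC1 targets and effectors had an IDR summit. These were REPTOR, a transcription factor held inactive by TORC1, with a signal of 539.7 (replicate signals 198, 199 and 156), and Thor, the translation inhibitor 4E-BP, with 511 (143, 213 and 154). All 7 had a candidate. S6k, the kinase that TORC1 activates, had the highest signal of those that missed, 174 at rank 3735. In the insulin branch, 5 of 8 genes had an IDR summit. They included Pi3K21B (438), the regulatory subunit of PI3-kinase, the kinase gene Pdk1 (289), the insulin receptor gene InR (285) and the transcription factor gene foxo (234). In energy sensing, 2 of 4 genes had one, which were Lkb1 (367, nearest to the start of CG9588) and SNF4Agamma (334), the gamma subunit of AMPK. The peaks of path and Rheb were among those not found in all 3 replicates.

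**Figure D4:**
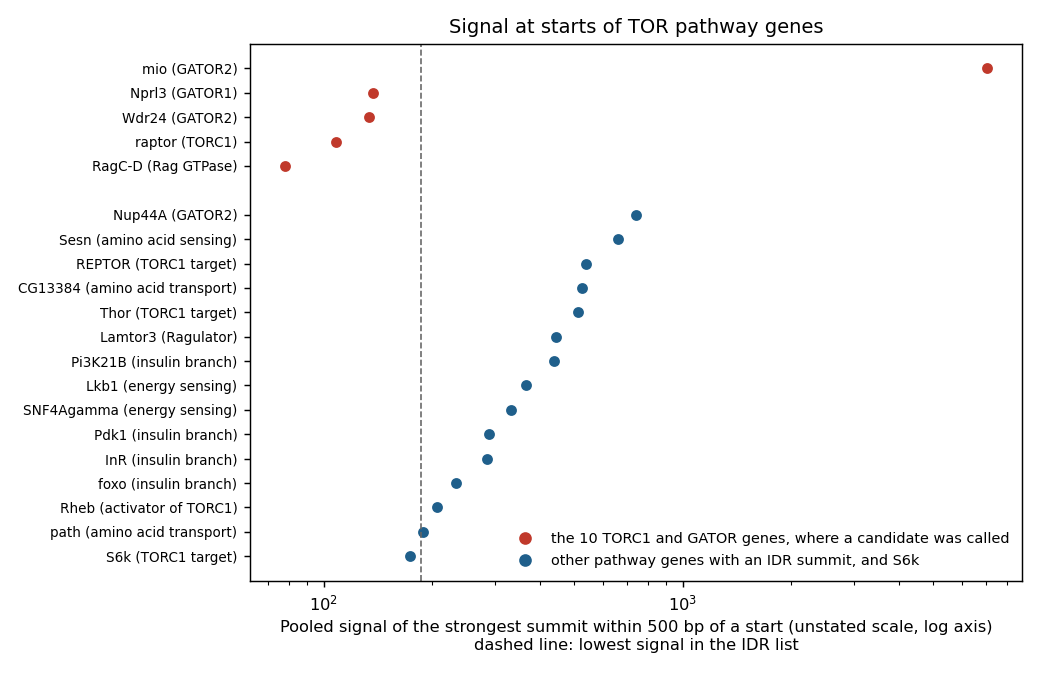
Pooled signal of the strongest summit within 500 bp of a start (x axis, log scale, unstated unit), for the members with a candidate there (red) and other pathway genes with an IDR summit there, with S6k as the strongest without (blue). The dashed line is the lowest IDR signal, 187. At 7067, mio lies apart from Nup44A at 744, and the other 4 members shown lie at or below 137.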

How the data were processed

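ChIP-seq peak lists of 3 biological replicates were used, with chromatin sheared by sonication to 200 to 800 bp, per the labels. Per the deposited file notes, each replicate list and the pooled list were called against 1 control alignment, which is not analysed here, and the IDR list came from these 4 lists. The names of the aligner and caller were not given in the sources used here. The signal and the q-value as −log10 are as the authors deposited them, and the p-value column was left unfilled (−1). The 3314 IDR entries are the strongest of the pooled list by signal.

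Coordinates are 1-based on dm6. Genes and starts came from Ensembl release 115, in which all 10 genes had the same bounds as in RefSeq, and sequence came from RefSeq. Bound genes are those with an IDR summit at most 500 bp from a start, and a summit was shared with a replicate within 250 bp. Where several entries of a replicate lay within 250 bp of a member's pooled summit, the strongest was taken. The look-ups were tested on simulated data. Python 3.11.15, numpy 2.4.6 and pandas 2.3.3 were used. No p-value was computed, since the members, pathway list, words and rules were chosen with earlier results of these data known. Genes named were the members, pathway genes with an IDR summit (and the strongest without) and genes at the members' IDR summits or overlapping a member. Neighbours at candidate summits and at Tor, and the pathway genes Sec13 and Lst8, were named after their values were seen. A few genes counted here are not reported by name or drawn. The alternatives were other windows, starts and bounds, nearest starts only, a stricter IDR list, other widths and overlaps, and setting each replicate aside. The replicates share 1 line.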

Additional observations from a re-analysis of the deposited data

How the results depend on the processing

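Under all 8 alternatives for an IDR summit near a start, 1 member (mio) was bound, so no other member was added. These settings were not a test of the call at mio. Its peak ranked 5 in every list, its pooled summit lay 15 bp from its only annotated start, and its signal was known beforehand. The count of members with an IDR summit within 2 kb, 2 in the report, was 1 with 1 kb on either side, 1 with the gene body only, 1 with summits whose nearest start is the member's own, 1 with the 1657 strongest IDR peaks, and 4 with 5 kb on either side. It was 1 to 2 with a replicate set aside, RagC-D being lost without replicate 1 or without replicate 2. The count of members with a pooled candidate near a start, 5 in the report, was 3 with a 250 bp window. Of 37 alternative values, the other 29 stayed within 1.5 times the reported count or within 1 SD. Without a replicate, the mean mio signal over the list median was 77.5 to 83.6. The number of bound pathway genes, under the same rule of recurrence, was 12 to 13, against 15 in the report, where the rule was not applied. Setting a replicate aside for mio's mean and for recurrence was chosen after seeing the data. Read depth is unknown. No paired analysis was possible because there is 1 group.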
